A study of Mus musculus with 7 samples.

Results

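Atf4, Atf5, Ddit3, Eif2ak3, Trib3, Sesn2, Asns, Phgdh, Psat1 and Mthfd2 are 10 genes of the integrated stress response that is carried by the transcription factor Atf4. They were chosen by name and make up 10 of the 14641 genes in the count table. All 10 were found by symbol in the authors' comparison table, their counts were joined by Entrez gene number, and all 10 passed the filter on low counts. The question asked of them here was whether their mRNA differed between mNrf2-TG and NTG hearts. mNrf2-TG mice carry full-length mouse Nrf2 behind the αMHC promoter, which is active in cardiomyocytes and not in the other cells of the heart. NTG mice are their non-transgenic littermates and carry no transgene. All animals were males of the C57BL/6J strain, the labels name no treatment, and RNA came from whole heart lysate of 4 NTG mice (libraries 1 to 4) and 3 mNrf2-TG mice (libraries 17 to 19). The age is 6 months by the mNrf2-TG labels, while the methods give 6 to 7 months for all mice, and the series description gives 7 to 8 months. The labels list each library as a separate sample and name no pool, and the p-values measure only the spread between these 7 libraries.

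In the integrated stress response, kinases that sense ER stress (Eif2ak3, known as PERK), lack of amino acids (Eif2ak4, GCN2), double-stranded RNA (Eif2ak2, PKR) or low heme and mitochondrial distress (Eif2ak1, HRI) phosphorylate the initiation factor eIF2. Most translation then slows, while the Atf4 message, which has short upstream reading frames, is translated more, so that Atf4 activity can change with no change of its mRNA. Atf4 protein binds with C/EBP-family partners to a composite element in the genes of amino acid import, asparagine and serine synthesis, mitochondrial one-carbon metabolism and stress signalling. Nrf2 binds a different sequence, the antioxidant response element, and some genes such as the cystine transporter gene Slc7a11 are known to answer to both factors.

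The 28-base windows that follow show where the core of the composite element, TGATGNAA, was found in the 250 bases before the RefSeq starts (GRCm38.p6), because this is the sequence through which the pathway reads Atf4. The motif is in capitals, each window is written 5′ to 3′ on the strand that carries the motif, and the coordinates stand with each name. Asns was the only one of the 10 genes with a match, and the others shown are genes of the pathway lists that are described with their values further on. Chac1, Atf3, Herpud1, Jdp2 and Vldlr are further Atf4 targets, Slc7a11 carries 2 matches, and Gars and Tars encode aminoacyl-tRNA synthetases.
Asns (chr6:7693215-7693242, minus strand): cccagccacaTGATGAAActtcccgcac
Chac1 (chr2:119351039-119351066, minus strand): ctggcaggagTGATGCAAcggcagggaa
Atf3 (chr1:191183426-191183453, plus strand): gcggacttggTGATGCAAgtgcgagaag
Herpud1 (chr8:94386307-94386334, minus strand): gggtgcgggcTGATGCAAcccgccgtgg
Jdp2 (chr12:85599373-85599400, plus strand): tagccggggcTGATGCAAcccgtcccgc
Vldlr (chr19:27216810-27216837, minus strand): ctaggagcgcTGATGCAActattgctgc
Slc7a11 (chr3:50443643-50443670, plus strand): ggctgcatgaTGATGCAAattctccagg
Slc7a11 (chr3:50443662-50443689, minus strand): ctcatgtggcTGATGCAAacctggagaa
Gars (chr6:55037961-55037988, minus strand): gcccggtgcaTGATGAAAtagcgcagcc
Tars (chr15:11399656-11399683, plus strand): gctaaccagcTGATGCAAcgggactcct

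The Asns match begins 23 bases before the RefSeq start and lies inside the span that GENCODE M21 gives the gene. The matches of Atf3, Jdp2 and Vldlr also lie inside the spans of their genes, before a RefSeq start within the span. Counted on both strands, TGATGNAA stood in 1134 of all 32851 RefSeq promoters (3.45%), in 1 of the 12 promoters listed for the 10 genes, and in 12 of the 125 promoters listed for 109 genes of the 7 pathway lists (9.6%). The core of the antioxidant response element, TGANNNNGC, is far more common by its letters alone. It had a match in 11563 of the 32851 promoters (35.2%), in 6 of the 12 promoters listed for the 10 genes (50%), and in 48 of the 125 promoters of the lists (38.4%). The motifs can share bases where they overlap at an offset, but they cannot both begin at the same TGA. A match is a description of letters in this window and not a measured binding site, and genes without a match were not searched elsewhere.

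The count table holds 6534684 to 8405857 reads a library. Nfe2l2, the gene of Nrf2, ranged from 752 to 1402 normalized counts over the NTG libraries and from 10753 to 12033 over the mNrf2-TG libraries (Log2FC 3.36, standard error 0.18, adjusted p = 2.96e-06 in edgeR's quasi-likelihood test), and its counts include reads of the transgene. Nqo1, a quinone reductase gene and a standard target of Nrf2, rose from 528 ± 59.9 to 5132 ± 303 normalized counts (SD, n = 4 and n = 3). NTG replicate 3 stood apart from the other NTG libraries, and without it the number of genes called in the whole comparison went from 2519 to 2950. Markers of the labelled tissue were present, with none of the 8 cardiomyocyte markers at 0 in every library, and their summed normalized counts were 639332 to 669995 in NTG and 542120.2 to 559275 in mNrf2-TG, with 4 of the 8 called lower. Of 7 fibroblast markers 5 were called higher (summed 8439.8 to 10918 in NTG, 12254 to 13152 in mNrf2-TG), and of 6 macrophage markers 4 were called higher (1027 to 1466 and 1769 to 2476). Over all genes tested, 8.48% were called higher and 8.73% lower. Of 6 endothelial markers 1 was called higher and 2 lower, with a median Log2FC of 0.0016. None of the 5 smooth muscle, 4 red blood cell or 3 adipose tissue markers tested was called. Of 6 skeletal muscle markers 3 were called lower (14978 to 26829 and 12661 to 14269), and of 4 atrial markers 1 was called higher (811 to 1561 and 2116 to 3985). The skeletal muscle list includes Acta1 and Ckm, which heart muscle also expresses. The atrial list includes Nppa, which the paper reports as raised in mNrf2-TG hearts. Neither sum is a measure of that tissue alone. In whole heart RNA, fewer cells of a type and less RNA per cell cannot be told apart, and the part of these shifts in the values that follow was not tested.

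None of the 10 genes passed an adjusted p under 0.05 in the comparison of mNrf2-TG with NTG. In the same edgeR quasi-likelihood test, 17.2% of the 14637 genes tested were called, 8.48% higher and 8.73% lower in mNrf2-TG. DESeq2 and limma-voom also called 0 of the 10, beside 2421 and 2532 over all genes. At an unadjusted p under 0.05 stood 2 of the 10 genes in edgeR, Atf5 and Asns, against 32.2% of all genes tested, 2 in DESeq2 and 1 in limma-voom. The Log2FC was positive for 6 genes and negative for 4, with a median of 0.097 beside 0.0012 over all genes tested. Only Atf5, 1 gene of the 10, had groups that do not overlap, against 29.7% of all genes tested. The 95% interval of the Log2FC included 0 for 8 of the 10, and for 7 it lay wholly between -1 and 1, which does not reach a doubling or a halving of the mRNA.

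**Figure D1:**
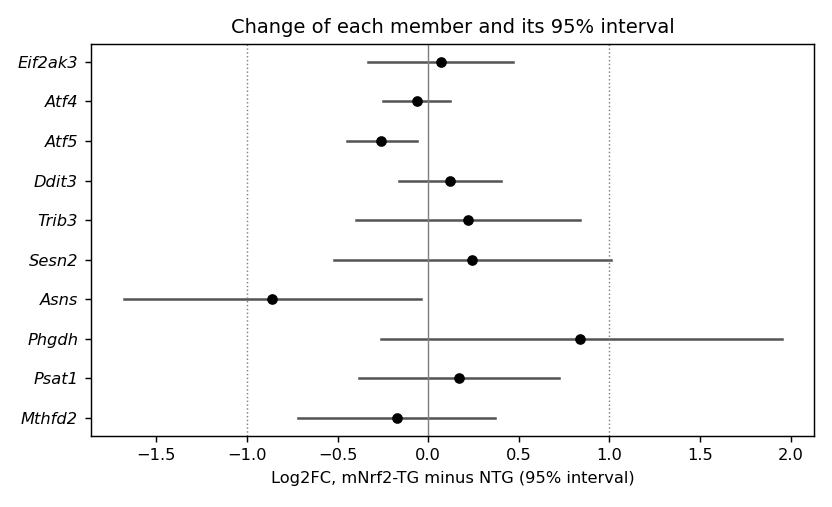
Log2FC (mNrf2-TG minus NTG, horizontal axis, log2 units) of the 10 genes from edgeR, with points for the estimates and lines for the 95% intervals. The intervals of Atf5 (-0.45 to -0.064) and Asns (-1.68 to -0.04) lie below 0, those of the other 8 genes cross 0, and those of Sesn2, Asns and Phgdh reach past the dotted lines at -1 or 1.

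Atf4 mRNA, the centre of the pathway, was almost level between the groups. Atf4 (Entrez gene 11911, chromosome 15, 80255184 to 80257541) had 548, 473, 569 and 498 TMM-normalized counts in NTG libraries 1 to 4, and 482, 493 and 523 in mNrf2-TG libraries 17 to 19. All 3 mNrf2-TG values fell inside the NTG range. The Log2FC was -0.064 (standard error 0.084, 95% interval -0.25 to 0.12, adjusted p = 0.651), from 522 ± 44.2 to 499 ± 21.2. Over the 7 fits that leave out 1 library, the Log2FC stayed between -0.1 and -0.019.

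Eif2ak3, the gene of the ER stress kinase PERK (Entrez gene 13666, chromosome 6, 70844515 to 70905245), had 114, 113, 144 and 78.7 normalized counts in NTG and 107, 118 and 129 in mNrf2-TG. The NTG values were the more scattered, with NTG 3 highest and NTG 4 lowest of all 7 libraries, and all mNrf2-TG values lay between them. The Log2FC was 0.07 (standard error 0.18, 95% interval -0.33 to 0.47, unadjusted p = 0.706 in edgeR's test), and without NTG replicate 4 it was -0.064.

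Atf5, Ddit3, Trib3 and Sesn2 stand downstream of Atf4 in stress signalling. Atf5 encodes a bZIP factor that is itself controlled by upstream reading frames and is known for the mitochondrial unfolded protein response (Entrez gene 107503, chromosome 7, 44812256 to 44816658). It had 407, 362, 355 and 411 normalized counts in NTG and 323, 338 and 301 in mNrf2-TG. Every mNrf2-TG library lay below every NTG library, by a small margin between mNrf2-TG 18 and NTG 3. The Log2FC was -0.26 (standard error 0.087, 95% interval -0.45 to -0.064, fold 0.836), with an unadjusted p of 0.0144 and an adjusted p of 0.0691 in edgeR's test. The decrease passed the threshold in 1 of 14 alternatives, without NTG replicate 3 (Log2FC -0.29, adjusted p = 0.04), and over all of them the adjusted p ran from 0.04 to 0.211. The Atf5 span overlaps Nup62 and Il4i1 on the other strand, and whether strand was used in the counting is not given in the sources used here.

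Ddit3 encodes CHOP, a C/EBP-family factor linked to cell death under prolonged ER stress (Entrez gene 13198, chromosome 10, 127290774 to 127296288). Its normalized counts were 171, 161, 129 and 134 in NTG and 152, 178 and 156 in mNrf2-TG. The groups overlapped, and mNrf2-TG 18 was the highest library. The Log2FC was 0.12 (standard error 0.13, 95% interval -0.16 to 0.4, adjusted p = 0.546). The annotation holds another gene model of the same name on the same strand inside this span, and 3.27% of the 50-base stretches of Ddit3 also occur in it.

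Trib3 encodes a pseudokinase that damps Akt and Atf4 signalling (Entrez gene 228775, chromosome 2, 152337422 to 152344032). It was counted sparsely, with 17.2, 23.4, 24.8 and 24.9 normalized counts in NTG and 24.8, 17.7 and 36.3 in mNrf2-TG. The highest value was that of mNrf2-TG 19, and the other 2 mNrf2-TG libraries lay in the NTG range. The Log2FC of 0.22 (standard error 0.28, 95% interval -0.4 to 0.84, adjusted p = 0.638) became -0.094 without mNrf2-TG replicate 19.

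Sesn2 encodes Sestrin 2, a leucine sensor that restrains mTORC1 and is also known as a target of Nrf2 (Entrez gene 230784, chromosome 4, 132492032 to 132510501). It had 18.4, 24.3, 33.0 and 19.9 normalized counts in NTG and 25.8, 43.4 and 16.3 in mNrf2-TG. The mNrf2-TG group held both the highest and the lowest of the 7 values. The Log2FC was 0.24 (standard error 0.34, 95% interval -0.52 to 1.01, adjusted p = 0.675), and -0.2 without mNrf2-TG replicate 18. Its span overlaps the annotated transcript Gm12981 on the same strand.

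**Figure D2:**
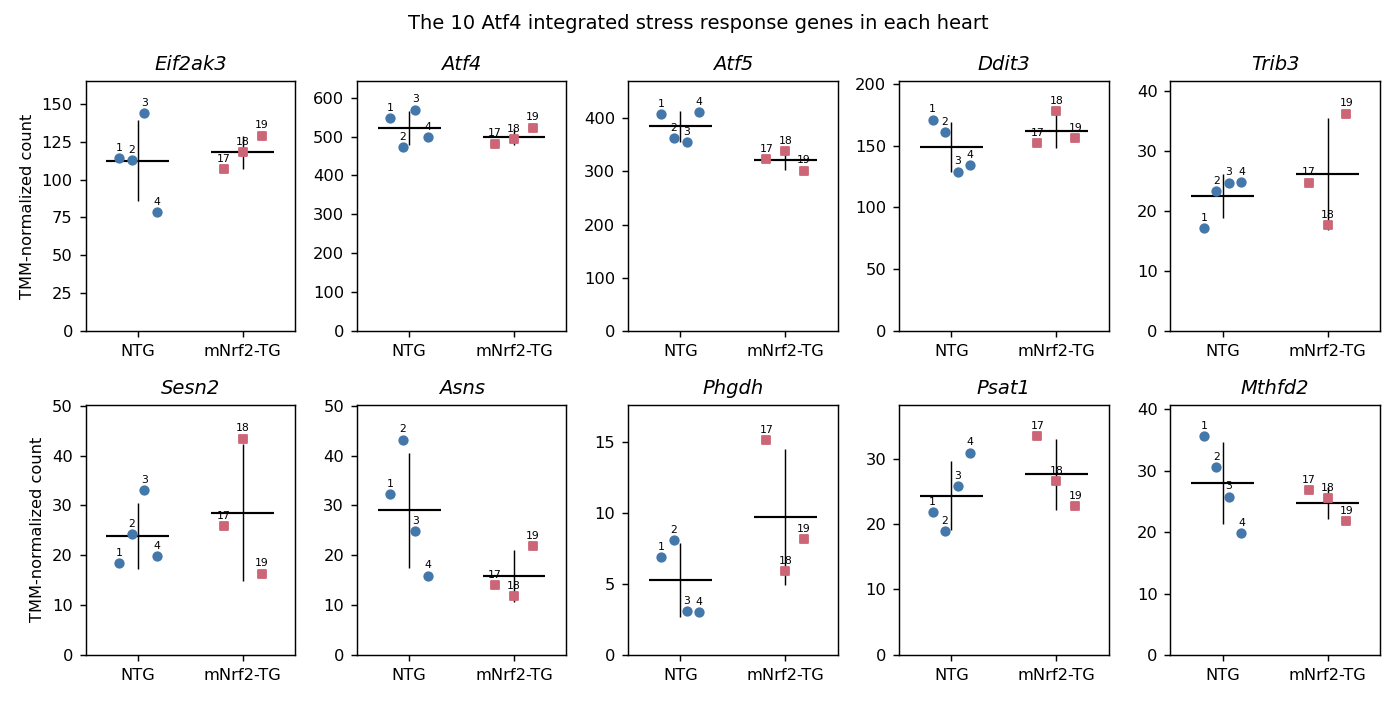
TMM-normalized counts (vertical axes, each from 0 on its own scale) of the 10 genes in the 4 NTG (circles) and 3 mNrf2-TG (squares) libraries, numbered by library, with the group mean as a horizontal line and the SD as a vertical line. Atf5 is the only gene whose groups do not overlap (355 to 411 against 301 to 338), and the genes with few counts, such as Phgdh and Sesn2, show the widest relative scatter.

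The remaining 4 genes encode enzymes that supply asparagine, serine and one-carbon units. Asns, asparagine synthetase and the only one of the 10 with a composite element match (Entrez gene 27053, chromosome 6, 7675169 to 7693254), had 32.2, 43.2, 24.8 and 15.9 normalized counts in NTG and 14.0, 11.8 and 21.8 in mNrf2-TG. NTG 1, 2 and 3 lay above all mNrf2-TG libraries, and NTG 4 lay among them. The NTG mean was 29 ± 11.6 and the mNrf2-TG mean 15.9 ± 5.24, and the Log2FC was -0.86 (standard error 0.37, 95% interval -1.68 to -0.04, fold 0.551). The unadjusted p was 0.0416, the adjusted p in edgeR's test was 0.138, and over 14 alternatives the adjusted p ran from 0.0591 to 0.336. These values rest on 16 to 48 reads per library in NTG and 12 to 24 in mNrf2-TG.

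Phgdh, the first enzyme of serine synthesis (Entrez gene 236539, chromosome 3, 98313170 to 98339990), was at the edge of detection, with 3 to 9 reads per NTG library and 6 to 14 per mNrf2-TG library. As normalized counts these were 6.9, 8.1, 3.09 and 2.99 in NTG and 15.1, 5.91 and 8.17 in mNrf2-TG. The groups overlapped, and mNrf2-TG 17 was the highest library. The Log2FC was 0.84 (standard error 0.5, adjusted p = 0.273), with a 95% interval from -0.26 to 1.95 that allows a small decrease as well as a large increase. In the annotation, 47.8% of its 50-base stretches also occur in pseudogene transcripts such as Gm7901, Gm9347 and Gm8341, so part of its reads could have been placed elsewhere or come from them.

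Psat1, the next enzyme of serine synthesis (Entrez gene 107272, chromosome 19, 15904678 to 15947337), had 21.8, 18.9, 25.8 and 30.9 normalized counts in NTG and 33.4, 26.6 and 22.7 in mNrf2-TG. The groups overlapped over most of their range. The Log2FC was 0.17 (standard error 0.25, 95% interval -0.38 to 0.72, adjusted p = 0.68). A processed pseudogene, Gm3329, lies within its span on the other strand, and 0.739% of its 50-base stretches occur in Gm12611.

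Mthfd2, a mitochondrial enzyme of the folate cycle (Entrez gene 17768, chromosome 6, 83305691 to 83325908), had 35.6, 30.6, 25.8 and 19.9 normalized counts in NTG and 26.9, 25.6 and 21.8 in mNrf2-TG. All mNrf2-TG values lay inside the wider NTG range. The Log2FC was -0.17 (standard error 0.24, 95% interval -0.72 to 0.37, adjusted p = 0.672). Its span overlaps the annotated feature Gm43890 on the same strand.

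As RPKM, that is divided by annotated exon length and by TMM-scaled library size, the levels of the factors were far higher than those of the enzymes. In NTG, Atf4 had 29.4 ± 2.49 RPKM, Atf5 25.6 ± 1.97, Ddit3 11.6 ± 1.59 and Eif2ak3 2.48 ± 0.592 (SD, n = 4). Trib3 and Asns followed at 1.41 each, then Mthfd2 at 1.07, Sesn2 at 0.914, Psat1 at 0.76 and Phgdh at 0.282. The NTG libraries of Atf4 and Atf5 overlapped, and so did those of each neighbouring pair from Trib3 down to Psat1, so the order within these runs is not set by the data. Ddit3, Eif2ak3 and Trib3 were separated from the gene above them in every NTG library, as was Phgdh from Psat1. In mNrf2-TG the means were 28.1 RPKM for Atf4, 21.4 for Atf5, 12.6 for Ddit3, 2.6 for Eif2ak3, 1.64 for Trib3, 1.09 for Sesn2, 0.944 for Mthfd2, 0.86 for Psat1, 0.771 for Asns and 0.519 for Phgdh.

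How small a difference could be seen depended on the number of reads. Atf4, Atf5, Ddit3 and Eif2ak3 averaged 115 to 511 reads per library, and among the 9667 genes with a mean of at least 50 counts 22.4% were called, with a median half-width of the 95% interval of 0.25 on the log2 scale. Trib3, Asns, Sesn2, Psat1 and Mthfd2 averaged 23.6 to 26.4 reads. Of the 2402 genes with a mean of 10 to 50 counts, 10.8% were called, the median half-width was 0.63, and the smallest Log2FC called was 0.53 in size. Phgdh averaged 7.14 reads, and 3.5% of the 2568 genes under 10 counts were called, none with a Log2FC below 1.13 in size. The coefficient of variation over the NTG libraries was 8.47% for Atf4 and 7.69% for Atf5, where counting error alone gives 4.42% and 5.3%. For Eif2ak3 it was 23.9%, beside 9.33% from counting, and for Psat1 21.3%, beside 19.8%.

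Over the 7 libraries, the genes whose log2 values ran most like those of Atf4 were Sertad1 (Pearson r = 0.962), Pld2 (0.952), Elp2 (0.939), Lrrc20 (0.929) and Kansl1 (0.925). They are the highest of the 9666 other genes with a mean of at least 50 counts, and are listed as a description without a test. No gene of the pathway was among these 5.

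In the list of eIF2 kinases, phosphatases and eIF2 or eIF2B subunits, 3 of 20 genes were called (15%, beside 17.2% of all genes), 1 higher and 2 lower, and the median Log2FC was -0.044. The groups did not overlap for 9 of the 20 (45%, beside 29.7% of all genes). The other eIF2 kinases did not pass. Eif2ak1 ranged over 382 to 388 normalized counts in NTG and 398 to 419 in the transgenic hearts, which do not overlap (Log2FC 0.099, adjusted p = 0.348). Eif2ak2 (Log2FC -0.018, adjusted p = 0.951) and Eif2ak4 (Log2FC -0.19, adjusted p = 0.511) overlapped between the groups. Ppp1r15a, the stress-induced subunit that directs dephosphorylation of eIF2, had 465 ± 118 and 408 ± 63.2 normalized counts (Log2FC -0.19, adjusted p = 0.521), with NTG 3 the highest at 629. Its constitutive counterpart Ppp1r15b ranged over 344 to 418 in NTG and 281 to 344 in the transgenic hearts. Its Log2FC of -0.28 passed without NTG replicate 3 (adjusted p = 0.0499) and not over all libraries (adjusted p = 0.0979).

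The genes called in that list act around the kinases and on eIF2 itself. Impact, which encodes an inhibitor of GCN2, fell from 570.2, 423, 383 and 437 normalized counts in NTG to 325, 297 and 267 in mNrf2-TG (Log2FC -0.61, standard error 0.14, adjusted p = 0.0138), a call lost without mNrf2-TG replicate 19 (adjusted p = 0.0611). Eif2s1, the subunit of eIF2 that the kinases phosphorylate, fell from 519 ± 25.5 to 418 ± 16.3 (Log2FC -0.31, adjusted p = 0.0183), and was not called without NTG replicate 2, mNrf2-TG replicate 18 or mNrf2-TG replicate 19 (adjusted p up to 0.0715). Of its 50-base stretches 5.76% occur in other annotated transcripts. Oma1, a mitochondrial protease in the relay to HRI, rose from 354 ± 12.5 to 429 ± 22.8 (Log2FC 0.28, adjusted p = 0.031), and was called in 3 of the 7 fits that leave out 1 library, without NTG replicate 3, NTG replicate 4 or mNrf2-TG replicate 19.

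Among the other Atf4 target genes, Ddit4, Cebpb, Jdp2 and Gpt2 were lower in mNrf2-TG by the largest margins of those called. Of 23 tested, 10 were called (43.5%, beside 17.2% of all genes), 3 higher and 7 lower, with a median Log2FC of -0.13. The groups did not overlap for 9 (39.1%, beside 29.7% of all genes). Fgf21 and Soat2, which were also on the list, were not found by symbol among the genes of the count table. Ddit4, which encodes the mTORC1 inhibitor REDD1, fell the furthest of those called, from 686, 848, 492 and 578 normalized counts in NTG to 95.8, 223 and 225 in mNrf2-TG. Every mNrf2-TG library was below every NTG library, with mNrf2-TG 17 lowest, and the Log2FC was -1.84 (standard error 0.28, adjusted p = 0.00257).

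Cebpb, a C/EBP factor that pairs with Atf4, had 293, 383, 270.2 and 241 normalized counts in NTG and 125, 122 and 154 in mNrf2-TG (Log2FC -1.15, standard error 0.16, adjusted p = 0.002). Most of its short span lies opposite Tmem189 on the other strand. Jdp2, a repressor of AP-1 sites with a composite element match 33 bases before a RefSeq start inside its span, fell from 187, 158, 118 and 146 to 66.7, 80.8 and 89.9 (Log2FC -0.94, standard error 0.17, adjusted p = 0.0064). Gpt2, mitochondrial alanine aminotransferase, fell from 432 ± 60.7 to 235 ± 16.5 (Log2FC -0.88, standard error 0.12, adjusted p = 0.00161). The calls of Ddit4, Cebpb, Jdp2 and Gpt2 were made in all 14 alternatives.

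Among the other called genes of this list, the lipoprotein receptor gene Vldlr (Log2FC -0.43, adjusted p = 0.00568) and the ER-associated degradation gene Herpud1 (Log2FC -0.65, adjusted p = 0.0178) were lower, and both have a composite element match. Herpud1 was not called without mNrf2-TG replicate 17 (adjusted p = 0.0776). Vegfa was lower as well (Log2FC -0.35, adjusted p = 0.049), with overlapping groups and a call in 1 of the 7 fits without 1 library, that without NTG replicate 2. On all 7 libraries the Vegfa call was lost with library totals alone as the scale (adjusted p = 0.061) and with filterByExpr (adjusted p = 0.0503). Eif4ebp1, an inhibitor of cap-dependent translation, rose from 652 ± 102 to 965 ± 26.6 (Log2FC 0.57, adjusted p = 0.00852). Aldh18a1, the proline synthesis enzyme, had a Log2FC of 0.49 (adjusted p = 0.0189), with the call lost when any 1 of the 3 mNrf2-TG libraries was left out (adjusted p up to 0.0611). Sqstm1, the autophagy receptor p62 and also a known target of Nrf2, had a Log2FC of 0.45 (adjusted p = 0.0248), with the call lost without mNrf2-TG replicate 17 or mNrf2-TG replicate 18 (adjusted p = 0.0863 and 0.0951).

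Several textbook targets of Atf4 did not pass. Chac1, a glutathione-degrading enzyme, had 67.8, 61.2, 105 and 49.8 normalized counts in NTG and 57, 82.8 and 54.5 in mNrf2-TG (Log2FC -0.13, standard error 0.26, adjusted p = 0.772). Atf3, a stress-induced bZIP factor, had 187, 122, 897 and 151 in NTG and 252, 184 and 82.6 in mNrf2-TG. NTG 3 exceeded every other library several-fold, and the Log2FC of -0.98 (standard error 0.68, adjusted p = 0.355) was 0.17 without it. Gdf15, a stress hormone of the heart, had 10.3, 7.2, 39.2 and 7.97 in NTG and 60.3, 46.3 and 30.9 in mNrf2-TG. NTG 3 lay within the mNrf2-TG range, above the other NTG libraries, and the Log2FC was 1.5 (standard error 0.51, adjusted p = 0.0724). Without NTG replicate 3 it was 2.42 (adjusted p = 9.77e-04), and with all libraries it passed in DESeq2 (adjusted p = 0.0359) and limma-voom (adjusted p = 0.0283). Nupr1 and Pycr1, which also hold a composite element match, had adjusted p-values of 0.469 and 0.315, and Pycr1 had only 0 to 10 reads per library. Eif2s3x, a gene of the eIF2 list and not of the Atf4 target list, also holds a match (adjusted p = 0.939).

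**Figure D3:**
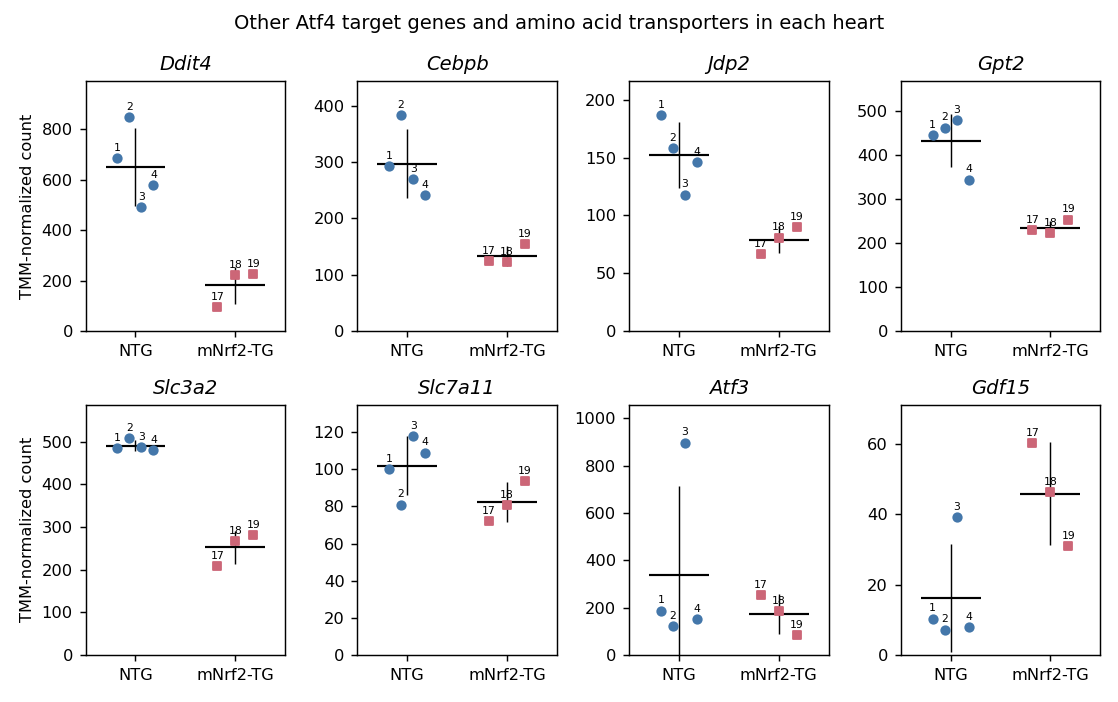
TMM-normalized counts (vertical axes, each from 0 on its own scale) of 6 further Atf4 target genes and of the transporter genes Slc3a2 and Slc7a11 in the 4 NTG (circles) and 3 mNrf2-TG (squares) libraries, with the group mean as a horizontal line and the SD as a vertical line, drawn down to 0 at most. Ddit4, Cebpb, Jdp2, Gpt2 and Slc3a2 are lower in every mNrf2-TG library, while for Atf3 and Gdf15 NTG 3 lies far above the other NTG libraries.

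Amino acid transporters were called in 5 of 16 cases (31.2%, beside 17.2% of all genes), 2 higher and 3 lower, with a median Log2FC of 0.07. The groups did not overlap for 3 of the 16 (18.8%, beside 29.7% of all genes). Slc3a2, the heavy chain that brings Slc7a11, Slc7a5 and other light chains to the membrane, fell from 486, 509, 488 and 481 normalized counts in NTG to 208, 267 and 281 in mNrf2-TG. The NTG libraries agreed closely, and all mNrf2-TG libraries lay far below them (Log2FC -0.96, standard error 0.1, adjusted p = 4.73e-04). Its light chain Slc7a11, a target shared by Nrf2 and Atf4 that carries 2 composite element matches, had 100, 81, 118 and 109 in NTG and 72.1, 80.8 and 93.5 in mNrf2-TG. The groups overlapped, and the Log2FC was -0.3 (standard error 0.16, adjusted p = 0.214).

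Slc6a6, the taurine transporter, rose from 1058 ± 169.5 in NTG to 1699 ± 127 (Log2FC 0.68, standard error 0.12, adjusted p = 0.0047), and Slc43a2, a transporter of large neutral amino acids, from 187 ± 23.2 to 271 ± 6.8 (Log2FC 0.53, standard error 0.11, adjusted p = 0.0094). Slc7a1, a carrier of cationic amino acids, had 909, 879, 284 and 894 in NTG and 292, 202 and 414 in mNrf2-TG. NTG 3 lay among the mNrf2-TG libraries, and the decrease (Log2FC -1.29, standard error 0.37, adjusted p = 0.0408) was called in 2 of the 7 fits without 1 library. The glutamine transporter gene Slc38a1 showed the same layout, with 50.5 in NTG 3 against 105 to 145 in the other NTG libraries and 25.8 to 59.9 in mNrf2-TG (Log2FC -1.43, adjusted p = 0.0273). For both genes the call was lost when NTG replicate 1, 2 or 4 or mNrf2-TG replicate 17 or 18 was left out, and in limma-voom (adjusted p = 0.0778 and 0.0522).

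Serine and one-carbon enzymes beyond the 10 genes were called in 2 of 19 cases (10.5%, beside 17.2% of all genes), both higher. Sardh, which oxidizes sarcosine to glycine, rose from 46, 54, 71.2 and 87.6 normalized counts in NTG to 195, 164 and 169.8 in mNrf2-TG (Log2FC 1.44, standard error 0.19, adjusted p = 0.0013), and an antisense transcript, Sardhos, covers much of its span. Gcsh, the lipoyl carrier of the glycine cleavage system, rose from 476 ± 19.8 to 686 ± 68.8 (Log2FC 0.53, standard error 0.083, adjusted p = 0.0033). Both calls were made in all 14 alternatives. Psph, the last enzyme of serine synthesis, had 38.4 ± 4.47 and 48 ± 13 normalized counts (Log2FC 0.31, adjusted p = 0.351). Shmt2, which passes serine carbon to mitochondrial folate next to Mthfd2, had 434 ± 54.1 and 429 ± 45.1 (Log2FC -0.015, adjusted p = 0.942).

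Of the 20 cytosolic aminoacyl-tRNA synthetase genes, a class that Atf4 is known to raise, 0 were called by edgeR's quasi-likelihood test, by DESeq2 or by limma-voom, where edgeR called 17.2% of all genes. At an unadjusted p under 0.05 there were 5 in edgeR, beside 32.2% of all genes, 3 in DESeq2 and 5 in limma-voom. The 32.2% is the share in edgeR, and those in DESeq2 and limma-voom are not given here. The groups did not overlap for 4 of the 20 (20%, beside 29.7% of all genes). Their Log2FC ran from -0.26 (Farsb) to 0.31 (Vars) with a median of -0.018, and their mean counts were not low, with a median of 502 reads. Gars and Tars, shown with a composite element match, had Log2FC values of -0.053 (adjusted p = 0.711) and -0.15 (adjusted p = 0.368). Vars and Qars passed without NTG replicate 3.

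Genes of the ER unfolded protein response, the arms beside PERK, were called in 6 of 27 cases (22.2%, beside 17.2% of all genes), 2 higher and 4 lower, with a median Log2FC of -0.17. The groups did not overlap for 5 of the 27 (18.5%, beside 29.7% of all genes). Dnajb9, an ER co-chaperone, fell from 779, 769.6, 724 and 757 normalized counts in NTG to 480, 506 and 456 in mNrf2-TG (Log2FC -0.66, standard error 0.071, adjusted p = 4.23e-04), and was called in all 14 alternatives. Of its 50-base stretches 5.5% occur in Gm6568. Xbp1 (Log2FC -0.34, adjusted p = 0.0265), the chaperone gene Hspa5 (Log2FC -0.46, adjusted p = 0.0471) and its ER partner Hsp90b1 (Log2FC -0.54, adjusted p = 0.0352) were lower as well. Edem2, a mannosidase of ER-associated degradation (Log2FC 0.58, adjusted p = 0.0325), and Mbtps1, the protease that activates Atf6 (Log2FC 0.3, adjusted p = 0.0396), were higher. Atf6 itself had 2007 ± 167 and 1846 ± 232 normalized counts (Log2FC -0.12, adjusted p = 0.444).

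Each of these calls except that of Dnajb9 was lost in 5 or more of the 7 fits without 1 library. On all libraries the Hspa5 call was lost in limma-voom (adjusted p = 0.0534) and with library totals alone (adjusted p = 0.0654). Leaving out NTG replicate 3 instead raised the number of called genes in this list from 6 to 12, and that over all genes from 2519 to 2950. In NTG 3, Hspa5 had 6213 normalized counts, against 8288 to 9935 in the other NTG libraries and 5525 to 6542 in mNrf2-TG.

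Of 14 mitochondrial chaperone and protease genes, a set linked to Atf5 in mitochondrial stress, 1 was called (7.14%, beside 17.2% of all genes). At an unadjusted p under 0.05 in edgeR's test stood 9 of the 14, beside 32.2% of all genes. Spg7, the protease subunit paraplegin, rose from 1007, 1056, 993 and 956 normalized counts to 1316, 1306 and 1306 (Log2FC 0.38, standard error 0.064, adjusted p = 0.00418), and was called in all 14 alternatives. The span of the annotated protein-coding gene Gm20388 covers that of Spg7 on the same strand, and 0% of the 50-base stretches of Spg7 occur in other annotated transcripts. The Log2FC values of the 14 ran from -0.54 to 0.38, and the groups did not overlap for 7 genes (50%, beside 29.7% of all genes).

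Over the 7 lists, 27 of 139 genes were called (19.4%, beside 17.2% of all genes), 11 higher and 16 lower, the groups did not overlap for 41 (29.5%, beside 29.7%), and the median Log2FC was -0.053. The lists were chosen with earlier results of these data known, and these shares are descriptions.

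**Figure D4:**
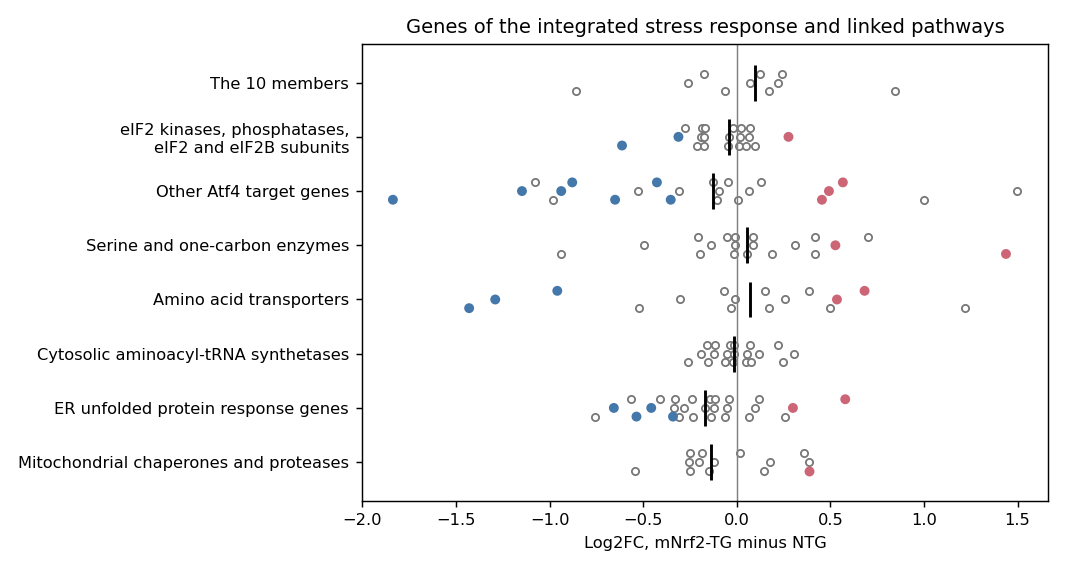
Log2FC (mNrf2-TG minus NTG, horizontal axis, log2 units) of the 10 genes and of the genes of the 7 pathway lists, with 1 circle per gene, filled where the adjusted p was under 0.05 and open elsewhere, and a bar at each median. No circle is filled among the 10 genes or the 20 synthetase genes, and the filled circles furthest to the left are those of Ddit4 (-1.84), Slc38a1 (-1.43) and Slc7a1 (-1.29).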

How the data were processed

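RNA sequencing libraries of 4 NTG and 3 mNrf2-TG hearts were read as single reads of 50 bases from stranded poly(A) libraries. The authors aligned the reads with Novoalign 2.08.01, as the submitters' processing notes also state, and deposited counts per gene without normalization. For the reference the methods give both hg19 and mm10 (GRCm38). The counting program and its use of strand are not given in the sources used here. The authors' comparison table, made with DESeq2 1.32.0, supplied gene symbols and a signal column with the authors' mean normalized count, from which recomputed means differed by a median of 0.067% and at most 0.29%. Its fold changes and p-values, and the authors' rlog values, were not used.

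The table has 14665 entries. Dropping 24 repeats of an Entrez gene left 14641, of which 14637 with a summed count above 1 were tested in edgeR 4.0.16 (R 4.3.3) with TMM scaling and the quasi-likelihood test, without covariates. The Benjamini-Hochberg adjustment covered all genes tested, and genes with an adjusted p under 0.05 were called. The standard error is the Log2FC over the square root of the F statistic, and the 95% interval uses the t quantile of the fit. Normalized counts are TMM-scaled to the mean library size. RPKM uses the union of GENCODE M21 exons. Total counts of 6534684 to 8405857 per library limit what can be seen for genes with few reads. The fit was tested on simulated data that held no outlying library, so that test does not cover the effect of NTG replicate 3.

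The 10 genes and the pathway lists were chosen with earlier results of these data known. Beside the 10 genes, a set of pathway genes was named whatever their values (Nfe2l2, Nqo1, Eif2ak1, Eif2ak2, Eif2ak4, Ppp1r15a, Ppp1r15b, Atf3, Chac1, Gdf15, Slc7a11, Psph, Shmt2, Atf6, Xbp1 and Hspa5), with up to 4 genes per list that had the largest Log2FC among those called, where no library of the higher group was under 10 counts and the groups did not overlap. Vldlr, Herpud1, Vegfa, Eif4ebp1, Aldh18a1, Sqstm1, Slc7a1, Slc38a1, Hsp90b1, Farsb, Vars, Qars, Gars, Tars, Nupr1, Pycr1 and Eif2s3x were named after their values were seen. The alternatives were DESeq2 1.42.0, limma-voom (limma 3.58.1), DESeq2 size factors, library totals alone, filterByExpr, a minimum of 10 counts in each library of 1 group, no filter, and leaving out each library in turn. Promoter sequences and starts were taken from RefSeq (GRCm38.p6), 1 window with a match is not reported here, and 0 columns held samples that the labels do not name.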

Additional observations from a re-analysis of the deposited data

Results flagged for a closer look

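In the 64 genes that the text names with a value of their own, the highest and the lowest NTG library were compared with the other NTG libraries by Dixon's criterion for 4 samples, which takes the gap to the nearest library as a share of the range and which chance alone meets in about 1 of 20 groups. It was met in 4 genes, in 3 of them by NTG replicate 3. A count of 4 in 64 is close to the rate that chance alone gives. Slc7a1 and Qars, which are among the 4, were named after their values were seen. Atf3 had 897 normalized counts in NTG replicate 3, against 122 to 187 in the other 3 NTG libraries, a gap of 0.915 of the range. Gdf15 had 39.2 there, against 7.2 to 10.3, a gap of 0.902. Slc7a1 was low there, with 284 against 879 to 909, a gap of 0.952. The other gene, Qars, was low in NTG replicate 4, with 485 against 559.9 to 569, a gap of 0.888 of the range.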

How the results depend on the processing

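The Log2FC values of the 10 genes kept their direction and their side of the threshold in all 68 fits that used other tools, scalings or filters on all 7 libraries. Phgdh gave no value under filterByExpr or the minimum of 10 counts, which remove it. Of the 70 fits of these genes without 1 library, 1 brought a call (Atf5, without NTG replicate 3) and 3 turned a direction, in Eif2ak3 (-0.064 to 0.21), Trib3 (-0.094 to 0.44) and Sesn2 (-0.2 to 0.54). Directions also turned without 1 library in Eif2ak2 (-0.26 to 0.098), Atf3 (-1.35 to 0.17), Chac1 (-0.35 to 0.12) and Shmt2 (-0.11 to 0.054), and with library totals alone in Eif2ak2 (0.009) and Shmt2 (0.015). Library totals alone moved the median Log2FC of all genes to 0.031, and of the 2417 genes then called 1383 were higher and 1034 lower (57.2% higher, against 49.3%). For 41 of the other named genes, 277 of 287 fits on all libraries and 219 of 287 without 1 library gave the same call and direction.

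Without 1 library, the number of genes called ran from 1373 (without mNrf2-TG replicate 17) to 2950 (without NTG replicate 3) over all genes, 0 to 1 among the 10 genes, 16 to 40 over the 7 lists, 1 to 4 for the eIF2 list, 6 to 10 for other Atf4 targets, 3 to 5 for amino acid transporters, 0 to 2 for synthetases, 1 to 12 for ER genes and 1 to 5 for mitochondrial genes. Counts moved by over 1.5 times on all libraries for transporters in limma-voom (3), for synthetases with library totals alone, filterByExpr or the minimum of 10 counts (1 each, Qars), and in DESeq2 for ER genes (10) and mitochondrial genes (3). The cause was not tested. No paired analysis was possible because the groups share no replicate numbers.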
